A study of Mus musculus with 6 samples.

Results

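The heat shock proteins and chaperones described here are 10 genes: the cytosolic proteins Hspa1a, Hspa1b, Hspb1, Hsph1, Dnajb1, Hsp90aa1 and Hspa8, the mitochondrial pair Hspd1 and Hspe1, and Hspa5 of the endoplasmic reticulum (ER). Every non-control probe that the array files name after 1 of these genes was taken, which gave 14 of the 55681 probes on the array. The probes were picked by name alone, but the genes were chosen with earlier results of these data known. These 14 probes belong to 9 of the 10 genes, out of 21245 genes that the array's probes could be assigned to, since no probe bears the name Hspa1b. The 6 arrays measured RNA of mesenchymal cells from mouse forelimb autopods, the hand plates, at stage E11.5, with 3 samples of Sox9-EGFP positive cells and 3 samples of Sox9-EGFP negative cells. All embryos were C57BL/6 and carried EGFP knocked into the Sox9 locus, the gene of the transcription factor that starts cartilage formation, so that both groups share the reporter allele and had both gone through cell sorting. Each sample pooled about 10 autopods. The sources used here give neither the sorting gates nor whether the samples of a group came from separate litters or sorts, so that p-values measure only the spread between these samples.

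Chaperones bind unfolded proteins and help them to fold, or hold them until they can be refolded or degraded. Heat or misfolded protein in the cytosol frees heat shock factor, which binds repeated GAA units in the promoters of heat shock genes, whereas misfolded protein in the ER acts through the unfolded protein response and its own promoter element. Mitochondria have a separate set, in which the Hspd1 product forms a folding chamber and the Hspe1 product its lid. Rapidly growing embryonic cells make many of these proteins without any stress, and dissociation of a tissue into single cells is known to induce several of them.

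In the sorted limb cells several chaperone RNAs were lower in Sox9-EGFP positive cells and others were not called. Of the 13 probes that could be tested, 7 were called lower and 0 higher at an adjusted p under 0.05 (limma across 26473 probes), and 12 of the 13 had a difference below 0. Over all tested probes 21.6% were called in either direction and 13.7% were called lower. Since the genes were chosen with earlier results of these data known, the members' counts are not independent of that choice. The 7 called probes measured 6 genes, namely Hspb1, Hsph1, Hsp90aa1, Hspa8, Hspd1 and Hspe1. Dnajb1, Hspa5, 2 of the 3 Hspa8 probes and 2 of the 3 Hspe1 probes were not called, and Hspa1a could not be tested. The median difference, positive minus negative, was -0.90 on the log2 scale for the members' probes and -0.10 for all tested probes. Differences are in log2 of the processed signal relative to the 75th percentile of each array.

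The promoters are shown first because heat-regulated genes are recognised by short repeats in them. Of the 10 members, 8 have a promoter in the RefSeq table used here (build GRCm38.p6), and the 250 bases before the annotated start were searched on both strands. The 2-unit heat shock element was taken as GAANNTTC or TTCNNGAA, each of which reads the same on both strands. It was found for 6 of the 8 genes, Hspa1a, Hspa1b, Hspb1, Hsph1, Hspd1 and Hspe1, and for 14.5% of the 27025 genes in the table (12.8% of its 32851 windows). A gene counts if any of its windows holds the element, and Hspd1 has 1 window with it and 1 without. The 3-unit form, which contains the 2-unit form and was searched as GAANNTTCNNGAA or TTCNNGAANNTTC, was found for Hspd1 and Hspe1 and for 0.514% of all genes (0.466% of windows). A match describes letters, not a bound site. The ER stress element, a CCAAT box and a CCACG box 9 bases apart on either strand, was found for Hspa5 alone among the 8 genes and for 0.13% of all genes (0.113% of windows). In the sequences below, written 5′ to 3′ on the strand of the gene, capitals mark the bases of these elements.
Hspe1, chr1:55087898-55088147, plus strand: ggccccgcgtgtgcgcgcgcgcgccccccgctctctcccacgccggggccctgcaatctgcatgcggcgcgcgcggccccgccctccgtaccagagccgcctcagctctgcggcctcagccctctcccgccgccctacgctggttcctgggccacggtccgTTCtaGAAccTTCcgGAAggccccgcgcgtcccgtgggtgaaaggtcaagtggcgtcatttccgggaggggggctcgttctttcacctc
Hspb1, chr5:135887669-135887918, plus strand: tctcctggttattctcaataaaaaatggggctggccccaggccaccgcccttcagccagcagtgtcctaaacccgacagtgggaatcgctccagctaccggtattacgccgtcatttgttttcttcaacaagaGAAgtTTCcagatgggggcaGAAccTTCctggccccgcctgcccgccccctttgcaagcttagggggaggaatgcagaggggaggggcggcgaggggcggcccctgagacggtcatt
Hsph1, chr5:149636337-149636586, minus strand: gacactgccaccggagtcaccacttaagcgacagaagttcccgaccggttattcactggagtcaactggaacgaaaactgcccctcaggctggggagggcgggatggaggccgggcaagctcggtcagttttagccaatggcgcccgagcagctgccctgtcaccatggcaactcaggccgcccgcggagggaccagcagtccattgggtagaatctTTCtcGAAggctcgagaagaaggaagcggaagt
Hspa1a, chr17:34972157-34972406, minus strand: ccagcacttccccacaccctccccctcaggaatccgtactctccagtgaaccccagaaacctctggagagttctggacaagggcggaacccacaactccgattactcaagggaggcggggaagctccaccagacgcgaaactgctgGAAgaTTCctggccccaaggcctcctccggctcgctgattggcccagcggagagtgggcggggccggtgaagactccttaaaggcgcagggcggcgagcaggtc
Hspa5, chr2:34771840-34772089, plus strand: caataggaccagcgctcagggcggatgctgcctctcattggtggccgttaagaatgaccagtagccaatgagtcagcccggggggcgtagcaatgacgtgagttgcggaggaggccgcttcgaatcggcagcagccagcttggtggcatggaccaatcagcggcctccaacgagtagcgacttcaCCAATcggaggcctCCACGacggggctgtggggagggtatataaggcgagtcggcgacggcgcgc

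Hspd1 and Hspe1 are neighbours on mouse chromosome 1 and are read in opposite directions. 1 of the 2 Hspd1 windows in the table shares 285 of 300 bases with the Hspe1 window on the other strand, so that the 3 overlapping 2-unit and 2 overlapping 3-unit matches of both genes are the same bases. They begin 89, 84 and 79 bases before the Hspe1 start. In Hspb1 the matches begin 117 and 97 bases before the start, in Hsph1 33 bases, in Hspa1a 104 bases, and the ER stress element of Hspa5 begins 65 bases before the start. The Hspa1a and Hspa1b windows differ at 4 of 300 bases, and both hold the match at the same place. Neither heat shock element form nor the ER stress element was found in the Dnajb1 windows, which says only that these letters are not there.

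Hspb1, which encodes the small heat shock protein HSP27 that holds unfolded proteins and binds actin filaments, was lower in positive cells on every slide. Its log2 levels were -0.44, -0.49 and -0.32 in positive replicates 1 to 3, against 0.42, 0.68 and 0.53 in negative replicates 1 to 3. The groups did not overlap, and the spread within each group was far smaller than the distance between them. The difference was -0.96 ± 0.13 (SE, n = 3 per group; adjusted p = 0.00691, limma), a level in positive cells of 51.6% of that in negative cells. The probe lies at chr5:136365366-136365425 of build mm9, on the plus strand.

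Hsph1, the large HSP110 relative of HSP70 that releases its bound nucleotide and keeps aggregates soluble, was measured by 2 probes that gave nearly the same difference. The probe nearer the 3′ end read 4.27, 4.21 and 4.18 in positive replicates 1 to 3, against 5.44, 5.14 and 5.84 in negative replicates 1 to 3. The positive samples were almost equal, and the negative samples were all higher and more spread. Its difference was -1.25 ± 0.20 (SE; adjusted p = 0.00994, limma), 42.0% of the negative level. The other probe, 366 bases closer to the 5′ end, read 2.72, 2.94 and 2.86 in positive cells, against 4.08, 3.73 and 4.56 in negative cells. Again the groups did not overlap, with a difference of -1.28 ± 0.23 (SE; adjusted p = 0.0140, limma). Without positive replicate 3 or negative replicate 1 this second probe was no longer called, with adjusted p up to 0.0572, while the probe near the 3′ end was called whichever array was left out.

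Dnajb1, the J-domain partner HSP40 that delivers clients to HSP70 and starts its ATP hydrolysis, was not called. It read 5.38, 4.98 and 5.04 in positive replicates 1 to 3, against 5.71, 5.47 and 5.78 in negative replicates 1 to 3. The groups did not overlap, by a margin of 0.09 set by positive replicate 1 and negative replicate 2, the 2 arrays of slide 1. The difference of -0.52 ± 0.17 (SE; adjusted p = 0.0727, limma) did not pass the threshold. Within slides 1, 2 and 3 it was -0.09, -0.80 and -0.67. Without slide 1, an alternative chosen after seeing the data, it was -0.74 with an adjusted p of 0.0244 (limma). With quantile normalization it was -0.14 (adjusted p = 0.590, limma), with normexp -0.11 (0.640) and with the authors' series matrix values -0.13 (0.557).

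Hsp90aa1, the heat-inducible HSP90 that matures kinases and steroid receptors, was lower in all positive samples. It read 6.49, 6.39 and 5.98 in positive replicates 1 to 3, against 7.19, 7.21 and 7.32 in negative replicates 1 to 3. The negative samples lay within a narrow band, and no positive sample came near it. The difference was -0.95 ± 0.17 (SE; adjusted p = 0.0142, limma), 51.6% of the negative level, and it was -0.72, -0.93 and -1.21 within slides 1 to 3. Leaving out negative replicate 1 or negative replicate 3 ended the call, with adjusted p up to 0.0636 (limma) and the difference between -1.06 and -0.80 whichever array was left out.

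Hspa1a, an inducible HSP70, was close to the background of the arrays. Its probe was well above background on 1 of 3 positive arrays and on 2 of 3 negative arrays, so it was not tested. It read -5.04, -5.23 and -4.55 in positive replicates 1 to 3, against -4.33, -5.38 and -4.01 in negative replicates 1 to 3, and the groups overlapped. The array's design lists the transcript of the near-identical Hspa1b for this probe as well, so its signal cannot be divided between the 2 genes. The probe, at chr17:35107117-35107176 of mm9 on the minus strand, is shown because it stands for both.
Hspa1a probe: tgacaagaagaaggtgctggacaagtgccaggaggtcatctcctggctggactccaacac

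Hspa8, the constitutive HSC70 that folds new proteins and uncoats clathrin vesicles, was measured by 3 probes that disagreed with each other. The probe that starts at base 1812 of the transcript read 7.17, 6.94 and 6.97 in positive replicates 1 to 3, against 7.72, 7.47 and 7.85 in negative replicates 1 to 3. The groups did not overlap, with a difference of -0.66 ± 0.15 (SE; adjusted p = 0.0307, limma). That call was lost with slide as a block (adjusted p = 0.0518, limma), with quantile normalization (0.191) and without each of positive replicates 2 and 3 and negative replicates 1 and 3.

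The other 2 Hspa8 probes were not called. The probe at base 730 read 4.50, 5.56 and 5.53 in positive cells, against 6.31, 5.49 and 6.49 in negative cells, a difference of -0.90 ± 0.39 (SE; adjusted p = 0.153, limma). The probe at base 2044, near the 3′ end, read 9.01, 7.88 and 7.80 in positive cells, against 8.09, 8.37 and 8.05 in negative cells, a difference of 0.06 ± 0.34 (SE; adjusted p = 0.917, limma). The array that stood apart in both was positive replicate 1, lowest at base 730 and highest at base 2044. At base 2044 that array was lowest before division by its 75th percentile, which was 126 against 385 to 478 on the other arrays. The processed signals there were 64650, 95560 and 93610 in positive cells, against 122000, 127100 and 126900 in negative cells. They were the highest of the member probes on each array. Whether such high signals still rise in proportion to RNA was not tested. The gap between the probes at bases 730 and 2044, which lie 1314 bases apart, was 4.51, 2.32 and 2.27 in positive replicates 1 to 3, against 1.78, 2.88 and 1.56 in negative replicates 1 to 3. In each group it was widest on the slide 1 array. Such gaps were also taken over 1176 transcripts with probes at least 1000 bases apart, minus each transcript's mean over the arrays. Their median was 0.00 on positive replicate 1 and 0.03 on negative replicate 2, and -0.05 to 0.08 on the other arrays. The cause of the wider Hspa8 gap was not tested. With slide as a block, the probe at base 730 was called lower (adjusted p = 0.0158, limma), since its differences within slides 1 to 3 were close together at -0.98, -0.93 and -0.78. The 2 probes upstream of the last one are shown, at chr9:40611142-40611201 and, with its 60 bases spread over 296 bases of the genome, chr9:40612755-40613050 of mm9 on the plus strand.
Hspa8 probe at base 730: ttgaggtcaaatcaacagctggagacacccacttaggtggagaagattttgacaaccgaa
Hspa8 probe at base 1812: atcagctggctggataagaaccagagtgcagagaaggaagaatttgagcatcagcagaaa

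**Figure D1:**
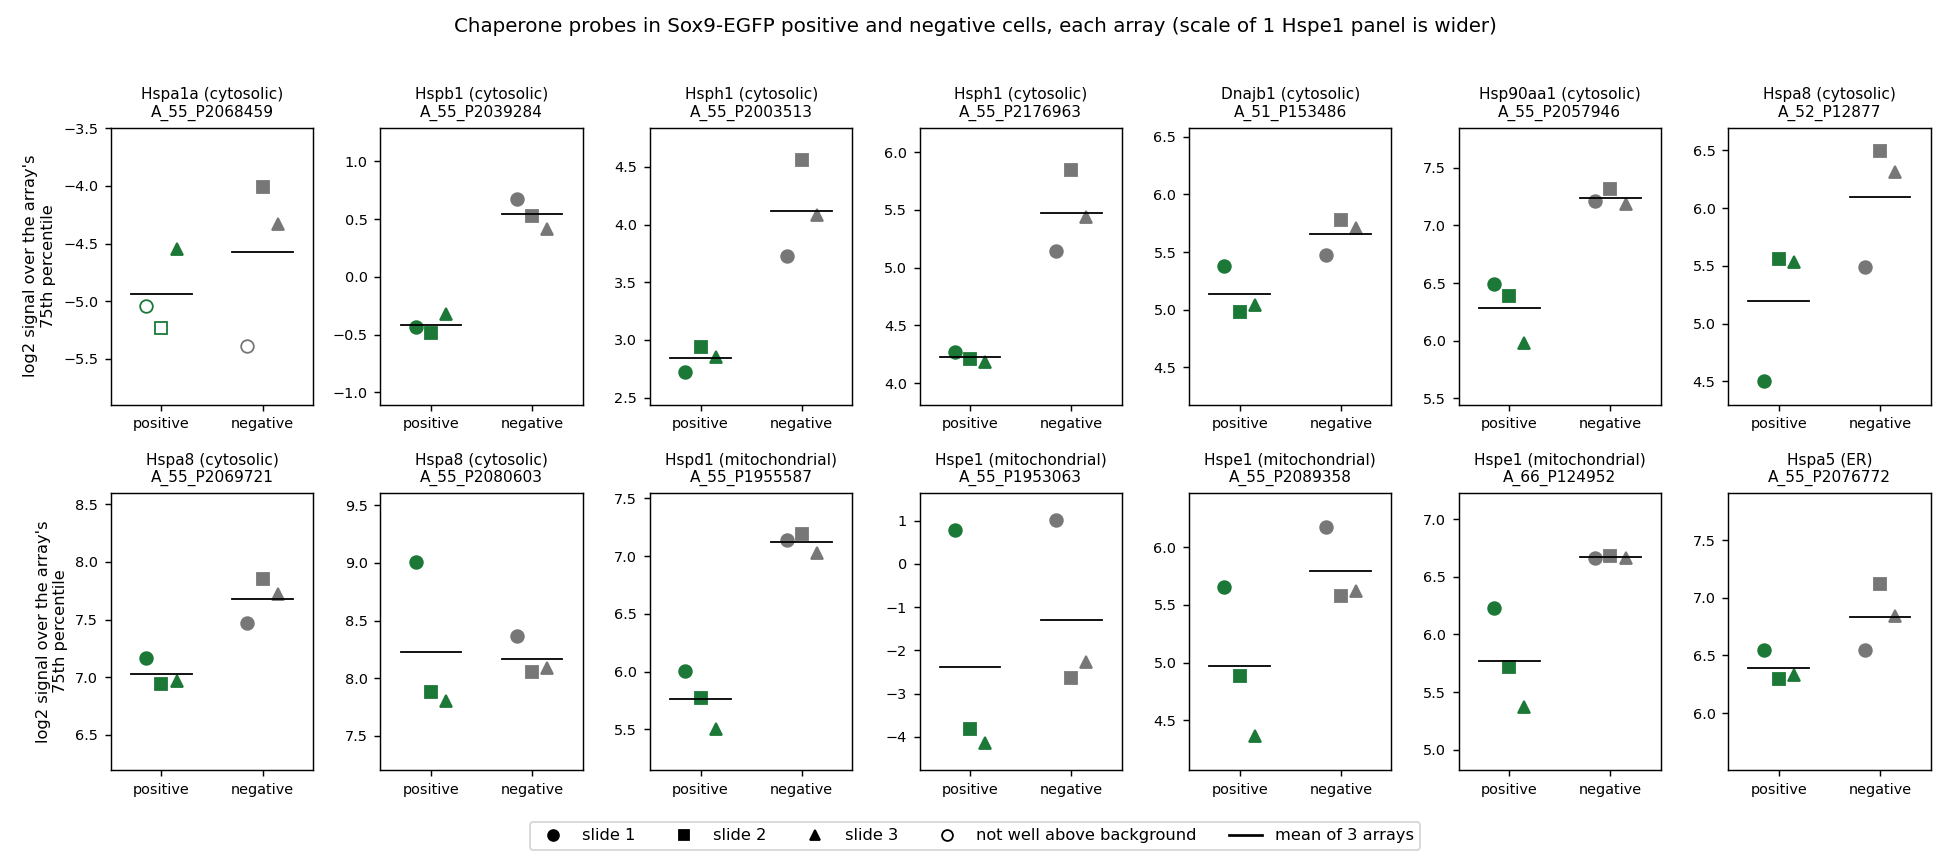
Log2 signal over the array's 75th percentile (vertical axes) for the 14 chaperone probes in Sox9-EGFP positive (left of each panel) and negative cells (right), 1 point per array, with the marker shape giving the slide, open points not well above background and the line the mean of 3 arrays. Hspb1, both Hsph1 probes, Hsp90aa1 and Hspd1 show 2 separate groups, while the 3 Hspa8 probes differ from each other and 1 Hspe1 probe follows the slide.

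Hspd1, the mitochondrial chaperonin HSP60, had the largest called difference of the members. It read 6.01, 5.77 and 5.50 in positive replicates 1 to 3, against 7.03, 7.14 and 7.19 in negative replicates 1 to 3. Every positive sample lay at least 1.02 log2 units below every negative sample. The difference was -1.36 ± 0.17 (SE; adjusted p = 0.00480, limma), a 2.57-fold lower level. Within slides 1 to 3 it was -1.14, -1.42 and -1.53. It was the only member probe called under all 18 alternatives that kept the threshold of 0.05. RefSeq lists 23 mouse pseudogenes named after Hspd1, and how far they reach this probe was not tested.

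Hspe1, the HSP10 lid of the same chamber, was called lower in positive cells by 1 of its 3 probes. That probe, A_66_P124952, read 6.23, 5.71 and 5.37 in positive replicates 1 to 3, against 6.66, 6.66 and 6.68 in negative replicates 1 to 3. The negative samples were nearly equal, the positive ones were spread, and the groups did not overlap. The difference was -0.90 ± 0.23 (SE; adjusted p = 0.0392, limma), and it was -0.44, -0.97 and -1.29 within slides 1 to 3. The call was lost with quantile normalization (adjusted p = 0.0786, limma) and when any array other than positive replicate 1 was left out.

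The second Hspe1 probe, A_55_P2089358, covers 57 of the same bases, begins 3 bases earlier and differs from the first at 1 base of the overlap, C15T, counted from 1 at the 5′ end of the second probe with its own base first. Both stretches are shown with that base in capitals, 25 bases of each, at mm9 chr1:55148023-55148082 for the second and chr1:55148026-55148085 for the first.
Second Hspe1 probe, start: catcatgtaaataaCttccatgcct
First Hspe1 probe, start: catgtaaataaTttccatgcctccc
The second probe read 5.66, 4.88 and 4.36 in positive replicates 1 to 3, against 5.62, 6.18 and 5.58 in negative replicates 1 to 3. Here positive replicate 1 overlapped the negative samples, and the difference of -0.82 ± 0.36 (SE; adjusted p = 0.154, limma) was not called. With slide as a block it was called (adjusted p = 0.0406, limma).

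The remaining Hspe1 probe, A_55_P1953063, followed the slide and not the sort. Its 60 bases are spread over 327 bases of mm9, chr1:55147620-55147946, plus strand.
Hspe1 probe across an intron: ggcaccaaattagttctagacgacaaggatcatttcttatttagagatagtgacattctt
It read 0.79, -3.81 and -4.14 in positive replicates 1 to 3, against -2.28, 1.01 and -2.65 in negative replicates 1 to 3. The 2 high values were those of slide 1, and the difference over all arrays was -1.09 ± 1.59 (SE; adjusted p = 0.672, limma). Within each slide the positive array was lower, by -0.23, -1.16 and -1.87 for slides 1 to 3. Of the 21705 probes above background on all 6 arrays, 137 had both slide 1 arrays at least 2 log2 units above the other 4 arrays, and 0 did so for slide 2 or slide 3. RefSeq lists 7 mouse pseudogenes named after Hspe1, and their part in this probe's signal was not tested.

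**Figure D2:**
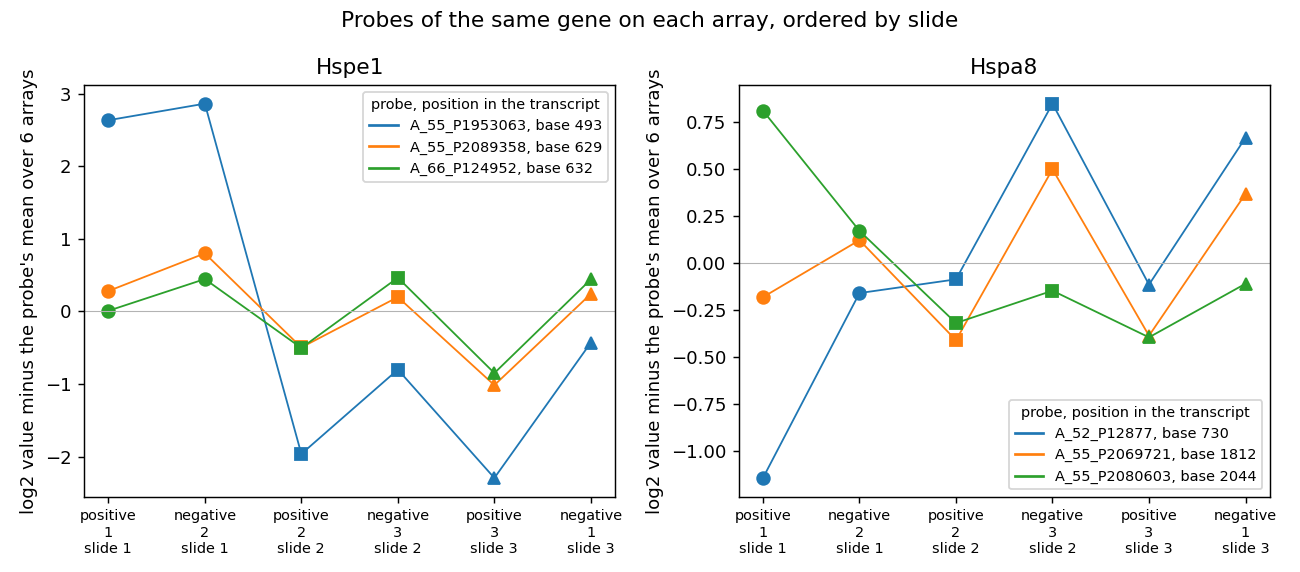
Log2 value of each Hspe1 probe (left) and Hspa8 probe (right) minus that probe's mean over the 6 arrays, with arrays in the order of slides and the positive array of each slide before the negative one. The Hspe1 probe spread over the intron is high on both slide 1 arrays, and the Hspa8 probes at bases 730 and 2044 part most on positive replicate 1.

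Hspa5, the ER chaperone BiP that also senses misfolded protein, was not called. It read 6.55, 6.30 and 6.33 in positive replicates 1 to 3, against 6.84, 6.54 and 7.12 in negative replicates 1 to 3. The slide 1 arrays, positive replicate 1 and negative replicate 2, were equal, so the groups touched. The difference of -0.44 ± 0.18 (SE; adjusted p = 0.138, limma) did not pass the threshold, and it was 0.00, -0.82 and -0.51 within slides 1 to 3. Without slide 1 it was -0.67 with an adjusted p of 0.0422 (limma). With quantile normalization it was -0.11 (adjusted p = 0.739, limma) and with the authors' series matrix values -0.14 (0.599).

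By compartment, 5 of the 8 tested cytosolic probes were called lower, with a median difference of -0.93 and a range from -1.28 to 0.06. Of the 4 mitochondrial probes 2 were called lower, with a median of -0.99 and a range from -1.36 to -0.82. All but the Hspd1 probe measured Hspe1, where 2 probes share 57 bases and another followed the slide (-1.09 ± 1.59, SE). The single ER probe was not called. In 8 of the 13 tested probes all positive arrays lay below all negative ones, against 28.2% of all tested probes. Differences between compartments were not tested, since each rests on few genes.

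Slide 1 held positive replicate 1 and negative replicate 2, and the members differed least on it. The median difference over the 13 tested probes was -0.52 within slide 1, -0.93 within slide 2 and -1.21 within slide 3, against -0.06, -0.12 and -0.14 for all tested probes. For 11 of the 13 member probes the difference on slide 1 was the highest of the 3 slides, and 11 probes were below 0 on all slides. Without slide 1, with 2 arrays left per group, 12 of the 13 member probes were called lower, against 15.7% of all tested probes, the exception being the Hspa8 probe at base 2044. This slide was chosen to be left out with the members' values known, and the members differed least on it, so the count is not independent of that choice. Positive replicate 1 also had the lowest 75th percentile of signal, 126 against 385 to 478 on the other 5 arrays, and 24743 spots well above background against 29800 to 35277. Their part in the smaller slide 1 difference was not tested.

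The level of a probe also moved with its difference. The median difference was 0.13 for the 13267 tested probes with a mean level below 0, -0.28 for the 4244 between 2 and 4, -0.38 for the 2202 between 4 and 6, and -0.26 for the 1301 above 6. In the same bins 7.06%, 23.1%, 30.5% and 16.5% of probes were called lower. Of the 13 member probes, 10 had a mean level above 4, where 5 were called, and 9 of these 10 were below the median of their bin. Quantile normalization, which equalises the arrays at every level, moved the members' median difference to -0.57 and that of all tested probes to -0.05, and 5 member probes were called. Besides Dnajb1 and Hspa5, it brought the called Hspa8 probe to -0.35, the Hspa8 probe at base 730 to -0.54, the first Hspe1 probe to -0.57 and the second to -0.47.

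**Figure D3:**
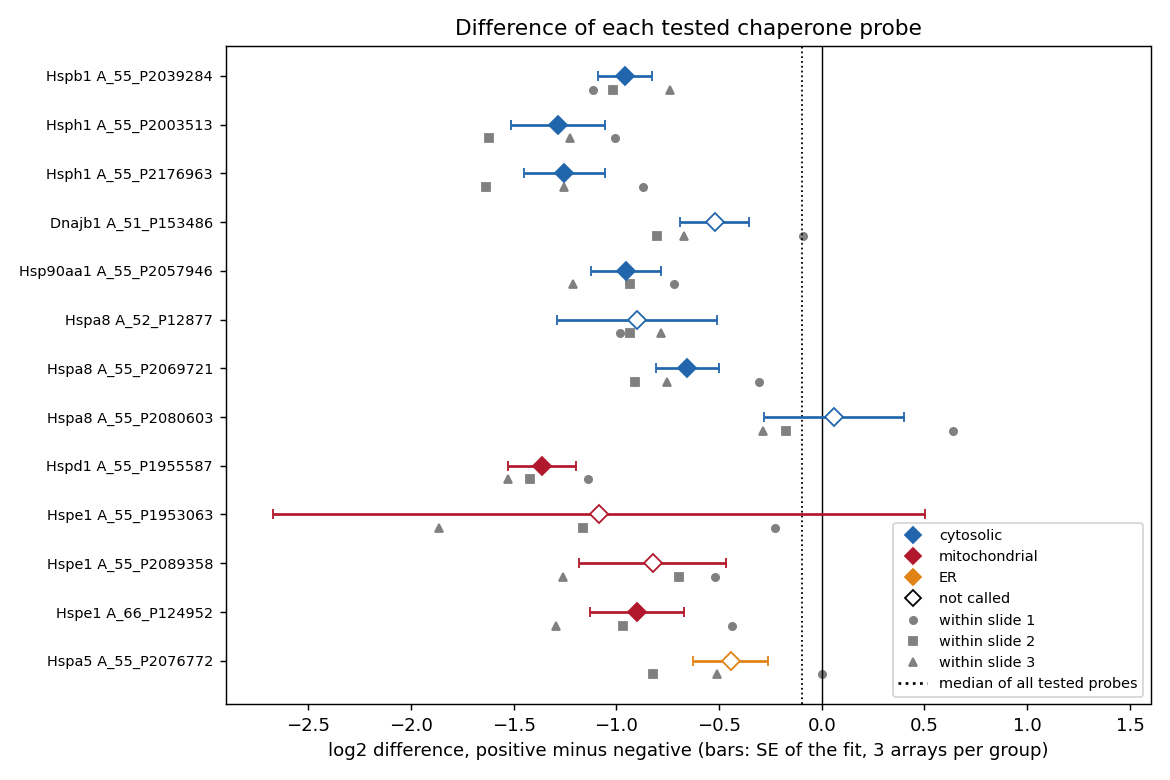
Log2 difference, positive minus negative, of the 13 tested chaperone probes with the SE of the fit (3 arrays per group), coloured by compartment, with open symbols for probes not called, small grey symbols for the difference within each slide and the dotted line at the median of all tested probes, -0.10. Hspd1 lies farthest left among the called probes, and the slide 1 circles lie right of the other slides for 11 of the 13 probes.

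The members were then set beside other chaperone genes, each by its brightest probe. In 7 lists of cytosolic, mitochondrial and ER chaperones with the heat shock factors, 67 genes that are not members were measured, of which 27 were called lower and 1 higher. Over all 13197 genes 18.2% were called lower and 8.52% higher. These shares were not matched for level. By probe, the share called lower went from 7.06% at levels below 0 to 30.5% at levels between 4 and 6. The lists too were chosen with earlier results of these data known. The median difference of these 67 genes was -0.50, against -0.18 for all genes, and 60 of them were below 0. With slide as a block 30 of the 67 were called lower and 1 higher, where Bag1 (adjusted p = 0.0692, limma), Cdc37 (0.0630) and Pdia6 (0.0548) lost their call and Hspa2, Bag2, Hspbp1, St13, Hyou1 and Calr gained one.

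The counts and medians by list include the member genes, so they partly repeat the results above. HSP90 and its co-chaperones had 8 of 10 genes called lower, 0 higher and a median of -0.85. Without the member Hsp90aa1 it was 7 of 9, with a median of -0.80. Ahsa1, which speeds up the HSP90 ATPase, differed by -1.01 ± 0.15 (SE; adjusted p = 0.00912, limma). It read 5.31, 5.65 and 5.43 in positive replicates 1 to 3, against 6.53, 6.29 and 6.59 in negative replicates 1 to 3, without overlap. Stip1, which links HSP70 to HSP90, differed by -0.91, Fkbp5 by -0.96, Ppid by -0.89, Ptges3 by -0.80, Fkbp4 by -0.72 and the kinase adaptor Cdc37 by -0.46. The constitutive Hsp90ab1 (-0.32) and Chordc1 (-0.35) were not called.

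HSP70 and HSP110 genes had 3 of 8 called lower and a median of -0.39. Without the members Hsph1 and Hspa8 it was 2 of 6, with a median of -0.39. Hspa4, another nucleotide exchange factor of the HSP110 kind, differed by -1.01 and Hspa14 by -0.74. Of 15 J-domain and nucleotide exchange partners, 2 were called lower, Dnaja2 (-0.80) and Bag1 (-0.44), and 1 higher. That gene was Dnajb4, a close relative of Dnajb1. Dnajb4 read -0.25, -0.19 and -0.41 in positive replicates 1 to 3, against -1.90, -2.58 and -2.40 in negative replicates 1 to 3. Its difference of 2.01 ± 0.20 (SE; adjusted p = 0.00279, limma) was opposite to that of the other called chaperones. Of 4 small heat shock proteins 2 were called lower, Hspb1 and Hspb8. Without the member Hspb1 it was 1 of 3, with a median of 0.00. Hspb8, a partner of Bag3 in autophagy of misfolded proteins, differed by -1.31 ± 0.33 (SE; adjusted p = 0.0398, limma). Hsf1, the main heat-activated factor, differed by -0.45 ± 0.15 (SE; adjusted p = 0.0758, limma) and was not called. The other 2 measured genes of the list of heat shock factors and their regulators, Hsf2 (-0.07) and the regulator Hsbp1 (-0.17), were not called either.

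The mitochondrial list held 15 measured genes, all below 0, of which 10 were called lower, with a median of -0.62. Without the members Hspd1 and Hspe1 it was 8 of 13, with a median of -0.61. Hspa9, the mitochondrial HSP70, read 4.47, 4.47 and 4.33 in positive replicates 1 to 3, against 5.58, 5.22 and 5.69 in negative replicates 1 to 3. The groups did not overlap, and the difference was -1.07 ± 0.16 (SE; adjusted p = 0.00899, limma). The proteases Clpp, Afg3l2, Lonp1 and Htra2 differed by -0.82, -0.82, -0.54 and -0.61, and the HSP70 partners Dnaja3, Dnajc19 and Grpel1 by -0.65, -0.65 and -0.62.

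In the ER list 7 of 20 genes were called lower and 0 higher, with a median of -0.50. Without the member Hspa5 it was 7 of 19, with a median of -0.50. Dnajc3, an inhibitor of the kinase PERK and a partner of Hspa5, read 0.79, 0.77 and 0.81 in positive replicates 1 to 3, against 1.66, 1.63 and 1.87 in negative replicates 1 to 3. The positive samples were nearly equal and all below the negative ones. The difference was -0.93 ± 0.13 (SE; adjusted p = 0.00658, limma). Sdf2l1 (-1.17), Manf (-1.06), Dnajb11 (-0.90), Creld2 (-0.69), Canx (-0.67) and Pdia6 (-0.50) were the other called genes. Hsp90b1, the ER HSP90, differed by -0.52 ± 0.16 (SE; adjusted p = 0.0636, limma) and was not called, as was the collagen chaperone Serpinh1 with -0.23.

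Lists of other stress responses are set beside the same shares of all genes, 18.2% lower and 8.52% higher. Of 13 regulators and target genes of the unfolded protein response 2 were called lower. They were Atf4 and its target Asns, an enzyme that makes asparagine and not a regulator. Asns read 3.85, 3.86 and 3.84 in positive replicates 1 to 3, against 5.76, 5.63 and 6.08 in negative replicates 1 to 3. The groups lay far apart, with a difference of -1.97 ± 0.16 (SE; adjusted p = 0.00132, limma). Atf4 differed by -0.74, while Ddit3, the factor CHOP, was not called (0.15). Of 11 oxidative and metal stress genes 3 were called lower, Txnrd1 (-1.08), Gclc (-0.78) and Gclm (-0.73).

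Immediate early genes, which dissociation of tissue is known to induce within minutes, were called in both directions. Of the 15 measured, 2 were called lower, Dusp1 (-0.61) and Egr1, at least 3.19-fold lower, and 1 higher. Jun read 5.82, 5.21 and 5.47 in positive replicates 1 to 3, against 2.84, 2.50 and 2.31 in negative replicates 1 to 3. Its difference of 2.95 ± 0.22 (SE; adjusted p = 0.00118, limma) was the only one called higher, and Fos (-0.81 ± 0.37, adjusted p = 0.171, limma) and Jund (0.13) were not called. The median of the list was -0.22.

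**Figure D4:**
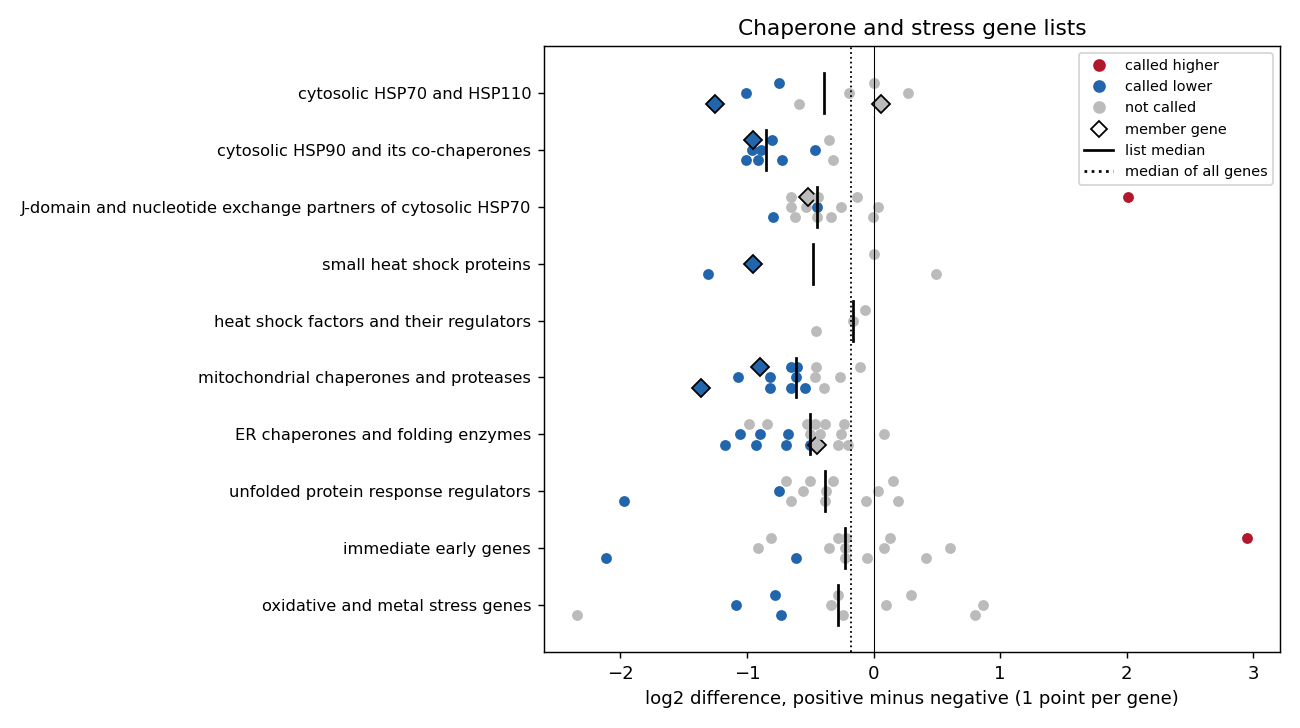
Log2 difference, positive minus negative, of each measured gene in 10 chaperone and stress lists by its brightest probe, coloured by call, with diamonds for member genes, a black line for each list's median and a dotted line at the median of all genes, -0.18. The HSP90 list has the lowest median, -0.85, and Dnajb4 and Jun stand alone on the right.

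Genes whose values followed the members most closely were sought over the 6 arrays among up to 11763 genes above background on all of them, by the root mean square of the difference between the centred log2 values. Nearest to the mean of Hspb1, Hsph1 and Dnajb1 was Dnajc3 (0.0414), followed by Bcor, Sco2, Mrpl15 and Slc25a32. Nearest to Hspd1 were Nkrf (0.0431), Uck2 and Gm9790. Nearest to Hsp90aa1 were Cenpu (0.0448), Gm9892 and Aatf, nearest to the mean of the Hspa8 probes was Usp7 (0.0196), and nearest to the mean of the Hspe1 probes, which holds the slide-bound probe, was Gm5699 at the wider distance of 0.214. Nearest to Hspa5 were Lig4 (0.0445), Camta1, Rif1 and, as the fourth, the HSP90 partner Chordc1. No member was among the 5 nearest genes of another. By rank the closest pairs were Dnajb1, by its brightest probe the 74th nearest to Hspa5, and Hspe1, the 187th nearest to Hsp90aa1. Next by rank was Hsp90aa1, the 206th nearest to Hspd1, for which Hspe1 was the 370th. By distance the closest were Hspa5 (0.0848) and Dnajb1 (0.0911) to the mean of the Hspa8 probes, as its 272nd and 355th nearest genes.

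Markers of other cells were set beside these results. The labels were checked with Sox9, which was 4.37 log2 units higher in positive cells (limma), and 7 of 8 markers of Sox9 positive skeletal precursors were called higher. Markers of limb mesenchyme were called in both directions, with 4 of 8 called lower, 2 higher and a median of -1.19. Msx1 differed by -4.56, Prrx2 by -1.93, Twist1 by -1.92 and Hoxd13 by -1.61, and the summed linear level of the list was 119 to 127 in positive samples and 269 to 275 in negative samples. Pdgfra (0.79) and Tbx5 (1.02) were called higher, and Prrx1 (-0.06) was not called. Summed linear levels of ectoderm markers (6 of 8 measured, 3 called higher) were 22.4 to 37.1 in positive samples and 9.25 to 11.6 in negative samples. The defining Krt5 and Cdh1 were not tested and are not in these sums. Trp63 and Krt18 had the highest levels in this sum. Krt18 (2.59), Fgf8 (1.43) and Krt8 (1.22) were called higher, while Trp63 (1.01), Krt14 (-0.03) and Epcam (-0.43) were not called. Summed levels of nerve and Schwann cell markers (4 of 7 measured, 1 called higher, 1 lower) were 2.50 to 2.89 in positive samples against 14.9 to 17.0 in negative samples, with Foxd3 not tested. Muscle precursor markers (4 of 6 measured, 2 called lower) summed to 0.12 to 0.18 in positive samples and 0.58 to 1.29 in negative samples, with Myf5 and Pax7 not tested. Blood markers (7 of 12 measured, 1 called lower) summed to 2.42 to 7.53 in positive samples and 2.80 to 58.6 in negative samples. The highest was on negative replicate 2, and Ptprc was not tested. Endothelial markers (2 of 8 measured, 0 called by limma) summed to 2.75 to 7.83 and 1.85 to 4.69, with Cdh5 not tested. Markers not tested missed the background filter or had outlier spots, which does not show that they were absent. Fewer cells with high chaperone levels and less chaperone RNA per cell cannot be told apart in such bulk samples, and the part of these other cells in the chaperone differences was not tested.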

How the data were processed

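RNA of 3 Sox9-EGFP positive and 3 negative samples was measured on 6 single-colour Agilent arrays, 1 each. The deposited files hold intensity values that the authors extracted with Feature Extraction 10.7.3.1, per the file headers, background-corrected and not normalized between arrays. An alternative used the log2 values of the authors' series matrix, deposited with the same median, 6.41, in each column. Here the processed intensity was taken as log2 minus each array's 75th percentile over 59305 non-control spots, and replicate spots were averaged. To be tested, a probe had to be well above background on each array of 1 group or both, which left 26473 probes after removal of 17 with outlier spots. The model was limma (version 3.58.1, R 4.3.3) over these probes, with Benjamini-Hochberg adjustment. No depth exists for arrays, and their number limits the precision. Per the file headers each of 3 slides held 1 array of each group, used as a block in an alternative. Other list genes were taken by their brightest probe, and the text names every member probe, the called list genes, up to 4 genes a list with the smallest adjusted p, and genes among the 5 nearest to a member. Other uncalled genes named, such as Hsp90ab1, Chordc1, Hsp90b1, Serpinh1, Ddit3, Fos and Jund, were picked with their values known. A gene not above background in 1 whole group is given as a bound. The members and gene lists were chosen with earlier results of these data known. The pipeline was tested on simulated data. Alternatives covered normalization, filters, moderation, blocks, thresholds and each array left out.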

Additional observations from a re-analysis of the deposited data

How the results depend on the processing

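Over 255 values of member probes under the alternatives, 39 lost a call and 14 gained one, and of 235 values of the 12 probes below 0 all but 1 stayed below 0, the exception being the slide-bound Hspe1 probe. The 7 called member probes became 1 without the background filter (14 tested), 3 at a threshold of 0.01, 3 with a 2-fold limit, 12 without slide 1 (chosen after seeing the data) and 3 to 9 when single arrays were left out. They were 3 without negative replicate 1, 4 without positive replicate 3 and 4 without negative replicate 3. All of them were lower, and no member probe was called higher under any alternative. The 5731 calls over all probes became 3803 with quantile normalization, 1350 without the filter, 9598 with array quality weights, 1718 at 0.01, 2335 with a 2-fold limit and 2027 to 6449 when single arrays were left out (2027 without negative replicate 1, 2036 without negative replicate 3, 2363 without positive replicate 3, 3496 without negative replicate 2 and 3599 without positive replicate 2). The share of calls that were lower was 63.2%, but 36.0% without the filter. With the replicate number as a block 1370 probes and 1 member probe were called. The cause of these changes was not tested. Whether same-numbered samples share a sort or litter is not known, and correlations over 3 arrays per group cannot decide it. Deviations of same-numbered arrays from their group means correlated at -0.27, -0.46 and 0.29. Among the positive arrays, replicate 3 correlated best with its own number, and replicates 1 and 2 with the negative array of their slide. Arrays of the same slide correlated at 0.56, 0.41 and 0.24, and with slide as a block 8 member probes were called.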

Other observations

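Among the 137 probes that were at least 2 log2 units higher on both slide 1 arrays than on the other 4 were, besides Hspe1 probe A_55_P1953063, 1 probe each of Cdk1, Rpl17, Rpl7a and Ndufaf8. The Cdk1 probe read 2.19, -1.11 and -1.71 in positive replicates 1 to 3, against -1.06, 2.22 and -1.07 in negative replicates 1 to 3. The Rpl17 probe read 4.70, 1.58 and 0.96 in positive cells, against 1.54, 4.65 and 1.34 in negative cells. Their values were known when they were picked, and the cause was not tested.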
